A study of Mus musculus with 2 samples.

Results

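The insulin-like growth factor (IGF) axis was examined here as 10 genes of the deposited tables, out of 43346 gene rows: the ligands Igf1 and Igf2, the receptors Igf1r and Igf2r, and the binding protein genes Igfbp2, Igfbp3, Igfbp4, Igfbp5, Igfbp6 and Igfbp7. They were chosen by name for their role as ligand, receptor or binding protein, and all 10 were found in the gene and the transcript tables of both libraries. The tissue was limb from mouse embryos of the strain C57BL/6J, taken at embryonic day 14.5, with no mutation or treatment given in the labels. Each of the 2 libraries is labelled as a biological replicate and a pool of both sexes from a litter, and both carry 1 donor identifier. The labels give neither which limbs were taken nor whether the pools came from separate litters, so the spread between the libraries may be partly technical and p-values measure that spread alone. Both libraries form 1 group, so levels, their order and their transcript make-up were described and no conditions were compared.

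IGF1 and IGF2 are secreted growth factors that signal through the tyrosine kinase receptor encoded by Igf1r. The product of Igf2r, which also carries mannose 6-phosphate tagged enzymes, binds IGF2 and takes it up for degradation, and the binding proteins hold the ligands outside cells until proteases or matrix release them. In the mouse embryo the axis is known for setting growth, including that of cartilage and muscle in the limb, and Igf2 and Igf2r are imprinted genes expressed mainly from the paternal and the maternal copy, respectively.

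Gene rows held 110172148 estimated counts in replicate 1 and 103363136 in replicate 2. All 8 limb marker genes (among them Prrx1, Tbx5, Tbx4 and Hoxd13) reached 1 TPM in both libraries, and none of the 10 markers of forebrain and spinal cord, heart, or lung and gut did. TPM, the deposited abundance unit, divides by transcript length and by the library total, so it allows levels of different genes to be compared. Of 6 liver markers 4 reached 1 TPM, with a sum over the list of 34.8 and 37.8 TPM in replicates 1 and 2. Within that list 3 of the 6 were higher in replicate 2, while Alb had 5.7 TPM in replicate 1 and 1.1 TPM in replicate 2. Cartilage, muscle, tendon, endothelium, erythroid, macrophage and epidermis markers were all present. In such bulk tissue, fewer cells of a type and less RNA per cell cannot be told apart.

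Igf2 was the most abundant transcript of the axis by a wide margin, and the binding protein gene Igfbp4 came next. In counts, the 10 genes held 0.802% of the total in replicate 1 and 0.850% in replicate 2. Their summed level was 5293 TPM in replicate 1 and 6309 TPM in replicate 2. The ligands made up 3572 and 4474 TPM of these sums, the binding proteins 1620 and 1730 TPM, and the receptors 100.4 and 104.0 TPM. Ligand transcripts thus outnumbered binding protein transcripts in both libraries, by 2.20-fold and 2.59-fold, and receptor transcripts were the scarcest class. Every one of the 10 genes exceeded 1 TPM in both libraries, where 33.8% of all genes and 62.8% of protein-coding genes reached 1 TPM. Each of the 10 had whole estimated counts in both, although a whole count does not exclude reads shared with other genes.

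**Figure D1:**
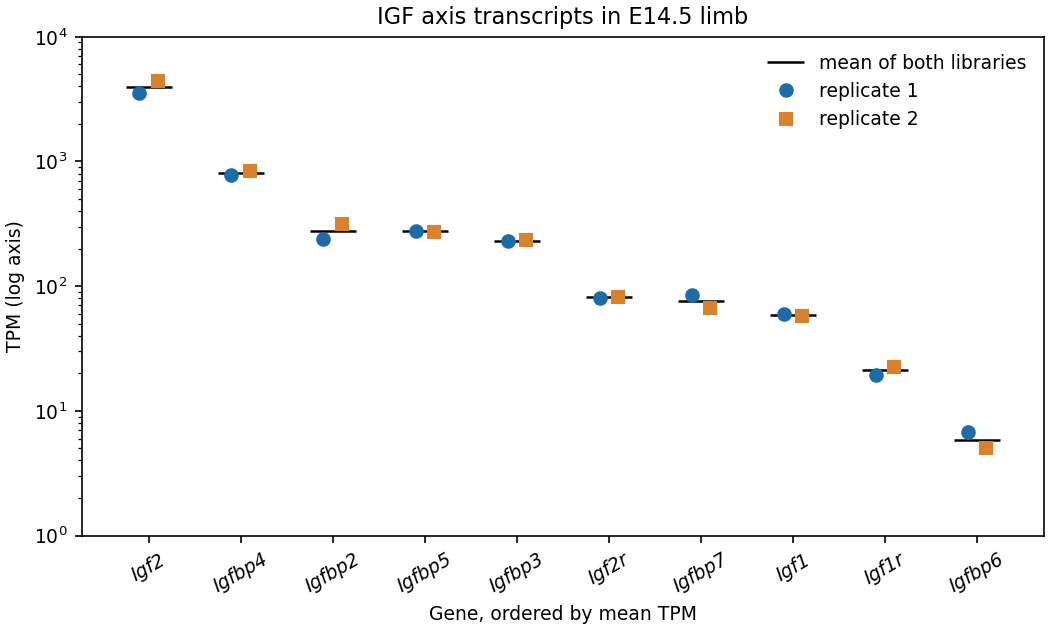
Level of each gene of the axis in TPM (vertical log axis) in replicate 1 (circles) and replicate 2 (squares), with a bar at the mean of both libraries, genes ordered by mean. Igf2 lies at 3512 and 4416 TPM and Igfbp6 at 6.75 and 5.03 TPM, while Igfbp2, Igfbp5 and Igfbp3 lie between 230.3 and 313.9 TPM.

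Igf2 (ENSMUSG00000048583.12, chromosome 7, 142650766 to 142666816, minus strand, GRCm38), the fetal growth factor, had 507150 counts in replicate 1 and 531681 in replicate 2. Its level was 3512 TPM in replicate 1 and 4416 TPM in replicate 2, 3964 ± 639 (SD, n = 2), rank 15 among all genes and rank 9 among the 21474 protein-coding genes. Igf1 (ENSMUSG00000020053.14, chromosome 10, 87858265 to 87937042, plus strand), the ligand that growth hormone controls after birth, had 17830 and 14613 counts. Its level was 60.0 and 58.0 TPM in replicates 1 and 2, 59.0 ± 1.39 (SD, n = 2), and the libraries lay close together. The lower Igf2 library was still 58.6-fold above Igf1 within the same library, and the other 76.1-fold. Igf2 therefore provided 98.3% and 98.7% of the ligand TPM. On the log2(TPM + 1) scale used for all tests of pairs, Igf2 exceeded Igf1 by 6.04 (SE 0.23, adjusted p = 6.23e-09, limma with Benjamini-Hochberg adjustment). That is a fold of 65.7, which became 36.8 with protein-coding transcripts alone and 32.0 in CPM.

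The annotated transcripts of Igf1 differ at both ends. A 52-base exon at chr10:87915298-87915349, shown in capitals below, is spliced into some transcripts just before the last exon and changes the reading frame of the end of the coding sequence, giving the precursors with different E peptides that are cut off when IGF1 matures. The 2 coding ends below, read 5′ to 3′ on the plus strand and up to the stop codon, show the form without the exon (Igf1-202) and the form with it (Igf1-206).
Igf1-202: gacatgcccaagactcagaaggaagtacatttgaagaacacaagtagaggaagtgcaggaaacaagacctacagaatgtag
Igf1-206: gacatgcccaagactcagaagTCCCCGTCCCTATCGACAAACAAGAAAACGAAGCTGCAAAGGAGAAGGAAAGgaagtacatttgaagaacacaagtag
The first 21 bases are the same in both, and the form without the exon then runs on in the other frame to its own stop codon.

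Transcripts without the 52-base exon carried most Igf1 reads. In the deposited tables, Igf1-202, the longest Igf1 transcript at 7052 nucleotides, held 93.8% and 94.0% of the counts of the gene in replicates 1 and 2. Its share of the Igf1 TPM, which the tables give as the isoform percentage, was lower, at 54.2% and 49.7%. The 3 transcripts with the exon together had 4.0% and 4.37% of the counts but 36.4% and 46.1% of the TPM, since 2 of them, Igf1-206 and Igf1-208, are short at 651 and 510 nucleotides.

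The division among the short Igf1 transcripts differed between the libraries. Igf1-206 had 31.1% of the TPM in replicate 1 and 11.8% in replicate 2. Igf1-208, whose annotated 3′ end is incomplete, had 5.18% and 33.4%. These values rest on 631.8 and 203.2 counts for Igf1-206 and on 72.5 and 384.2 counts for Igf1-208. All 651 exonic bases of Igf1-206 and all 510 of Igf1-208 also belong to other annotated Igf1 transcripts, whereas 5431 of the 7052 bases of Igf1-202 are its own. The split by leader exon was steadier: the 3 transcripts that start with the leader exon of Igf1-202 had 54.6% and 50.8% of the TPM and 93.9% and 94.4% of the counts.

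Igf2 transcripts begin at several start sites, which are numbered here 1 to 4 in their order along the minus strand. The transcript from site 3, Igf2-205, has an upstream start codon in its first exon, and its coding sequence therefore opens with 33 bases more than that of Igf2-201 from site 4. The starts of both coding sequences on the minus strand are shown with the extra bases in capitals, beginning at chromosome 7 positions 142658390 (Igf2-205) and 142655810 (Igf2-201). After these 33 bases the coding sequences are identical.
Igf2-205: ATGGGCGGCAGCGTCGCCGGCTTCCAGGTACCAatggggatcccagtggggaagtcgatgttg
Igf2-201: atggggatcccagtggggaagtcgatgttg
These transcripts differ mainly in their first exons: Igf2-201 shares 3675 of its 3708 exonic bases with other Igf2 transcripts, and Igf2-205 has 1126 of 4722 bases to itself.

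By counts, sites 3 and 4 led in both libraries. Site 3 held 42.7% of the Igf2 counts in replicate 1 and 52.6% in replicate 2, and site 4 (Igf2-201 with the minor Igf2-202) held 32.2% and 19.7%. In TPM these sites had 18.2% and 20.2% (site 3) and 17.7% and 9.77% (site 4). Site 1, used by Igf2-203 alone, had 17.5% and 24.1% of the TPM and 4.11% and 5.92% of the counts, and site 2 (Igf2-204 and Igf2-206) had 2.23% and 1.72% of the TPM. Site 1 and site 3 were thus higher and site 4 lower in replicate 2, with no replicate check on that difference. The annotation of Igf2-203 covers 650 nucleotides, of which 609 also lie in Igf2-201.

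The 100 bases before 2 of these starts, and the 66 bases before site 2 that lie outside annotated exons, are shown because transcripts from the 3 sites were all present (RefSeq starts, GRCm38.p6, minus strand, 5′ to 3′, with GGGCGG in capitals). The windows lie at chr7:142666817-142666916 (site 1), chr7:142661306-142661371 (site 2) and chr7:142657497-142657596 (site 4).
Igf2 start site 1: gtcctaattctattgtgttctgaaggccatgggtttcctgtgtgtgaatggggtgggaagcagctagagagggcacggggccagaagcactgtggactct
Igf2 start site 2: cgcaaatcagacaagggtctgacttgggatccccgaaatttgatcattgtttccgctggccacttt
Igf2 start site 4: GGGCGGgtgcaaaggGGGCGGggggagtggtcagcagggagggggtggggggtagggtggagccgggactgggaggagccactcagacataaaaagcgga
The letters GGGCGG are the core of a GC box. Searched on either strand, they occurred in the 100 bases before the RefSeq starts of sites 3 and 4. They did not occur before sites 1 and 2. The window before site 3 is not shown, and 0 of its bases lie outside annotated exons. The RefSeq start of site 3, at 142658804, lies inside the GENCODE first exon, which begins at 142659489 on the minus strand. The GGGCGG before site 3 is therefore exon sequence and not upstream of the quantified transcript. Over all 14 RefSeq starts of the 10 genes, 6 windows held GGGCGG, 1 held TATAAA (Igfbp4) and 1 held CCAAT (Igfbp6). Among 32851 windows of the same length before RefSeq starts, 24.7% held GGGCGG, 5.56% held TATAAA and 18.9% held CCAAT, both strands searched and overlaps between motifs allowed.

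The transcript with the largest share of Igf2 TPM was a short one without a coding sequence. Igf2-208, annotated as a processed transcript of 958 nucleotides in 2 exons (142650843 to 142653030), had 43.7% of the TPM in both libraries and 17.2% and 18.5% of the counts. All of its 958 bases lie inside the last exon of Igf2-201, so its reads are told from those of the coding transcripts by its splice junction and ends only. With the 7 protein-coding transcripts alone, Igf2 had 1966 and 2476 TPM, 56.0% and 56.1% of its total. At that level it was still the highest gene of the axis.

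Both receptors were far below Igf2, and Igf1 lay between them, with Igf2r above it and Igf1r below it. Igf2r (ENSMUSG00000023830.9, chromosome 17, 12682406 to 12769664, minus strand) had 51434 and 47559 counts and 80.9 and 81.4 TPM in replicates 1 and 2, 81.1 ± 0.354 (SD, n = 2). Igf1r (ENSMUSG00000005533.9, chromosome 7, 67952827 to 68233668, plus strand) had 6285 and 6741 counts and 19.5 and 22.7 TPM, 21.1 ± 2.21 (SD, n = 2). Transcripts of the clearing receptor thus exceeded those of the signalling receptor in each library, by 4.14-fold and 3.59-fold. The difference was 1.90 on the log2 scale (SE 0.14, limma adjusted p = 6.45e-06). The mean fold was 3.73 in TPM and 7.49 in CPM. Both rest on an Igf1r transcript that is shorter than in a later annotation, as described below. Reads outside the shorter form are missing from the CPM of Igf1r. Igf2 transcripts outnumbered those of Igf2r by 43.4-fold and 54.3-fold. The mean fold of Igf2 over Igf2r on the log2(TPM + 1) scale was 48.0, and it was 27.7 with protein-coding transcripts alone and 10.5 in CPM, which is not scaled by length. Igf1 transcripts outnumbered those of Igf1r by 3.07-fold and 2.56-fold. Igf1 over Igf1r also passed, at 1.44 on the log2 scale (SE 0.15, limma adjusted p = 3.94e-05).

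The noncoding RNA gene Airn overlaps the start of Igf2r on the plus strand, and it had 79.3 and 70.7 TPM. Igf2os overlaps Igf2 in the same way, with 23.1 and 25.9 TPM. The libraries keep the strand of the RNA, but whether counting used it is not stated here, so levels of these overlapping genes are uncertain to that extent.

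Each receptor was read almost wholly as 1 transcript. Igf2r-201, of 48 exons, had 97.4% and 96.4% of the Igf2r TPM, and Igf1r-201 was the only Igf1r transcript in the tables. The Igf1r transcript measured 4489 nucleotides in the deposited tables and 11409 nucleotides under the same identifier in the later annotation GENCODE M21, so reads from the added part were not counted for it and its TPM is relative to the shorter form.

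Among the binding proteins, Igfbp4, Igfbp2, Igfbp5 and Igfbp3 together made up 94.4% and 95.9% of the binding protein TPM. Igfbp4 (ENSMUSG00000017493.8, chromosome 11, 99041244 to 99054392, plus strand), which encodes an inhibitor of IGF action that the protease of Pappa cuts, had 117920 and 108256 counts. Its level was 783 and 841 TPM in replicates 1 and 2, 812 ± 41 (SD, n = 2), rank 140 among all genes. Its share of the binding protein TPM was 48.3% and 48.6%, nearly the same in both libraries. The shares of the next 3 were close to each other: 14.7% and 18.1% for Igfbp2, 17.1% and 15.7% for Igfbp5, and 14.2% and 13.5% for Igfbp3. Igfbp4 exceeded Igfbp2 by 1.56 on the log2 scale (SE 0.16, adjusted p = 9.87e-05, limma) and Igfbp5 also by 1.56 (SE 0.15, adjusted p = 7.11e-05, limma).

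As with Igf2, the transcript with the largest share of Igfbp4 TPM has no coding sequence. Igfbp4-203, a processed transcript of 785 nucleotides, had 51.8% and 56.5% of the TPM in replicates 1 and 2 and 15.1% and 17.1% of the counts. The full coding transcript Igfbp4-201 of 3831 nucleotides had 46.8% and 42.3% of the TPM and 84.7% and 82.7% of the counts. Only the first exon of Igfbp4-203, 28 bases at chr11:99043597-99043624 between the first and second exons of Igfbp4-201, is its own, and its other 757 bases lie in Igfbp4-201. That exon is shown in capitals with the start of the shared second exon, because the assignment of reads to Igfbp4-203 turns on it.
Igfbp4-203: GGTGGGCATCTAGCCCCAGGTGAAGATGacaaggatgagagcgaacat
With protein-coding transcripts alone, a comparison chosen after the data were seen, Igfbp4 had 368 and 358 TPM. It then no longer passed the test against Igfbp2 (0.42 on the log2 scale, SE 0.27, limma adjusted p = 0.123) or Igfbp5 (0.41, SE 0.18, limma adjusted p = 0.0506), and its share of binding protein TPM was 30.6% and 28.8%.

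**Figure D2:**
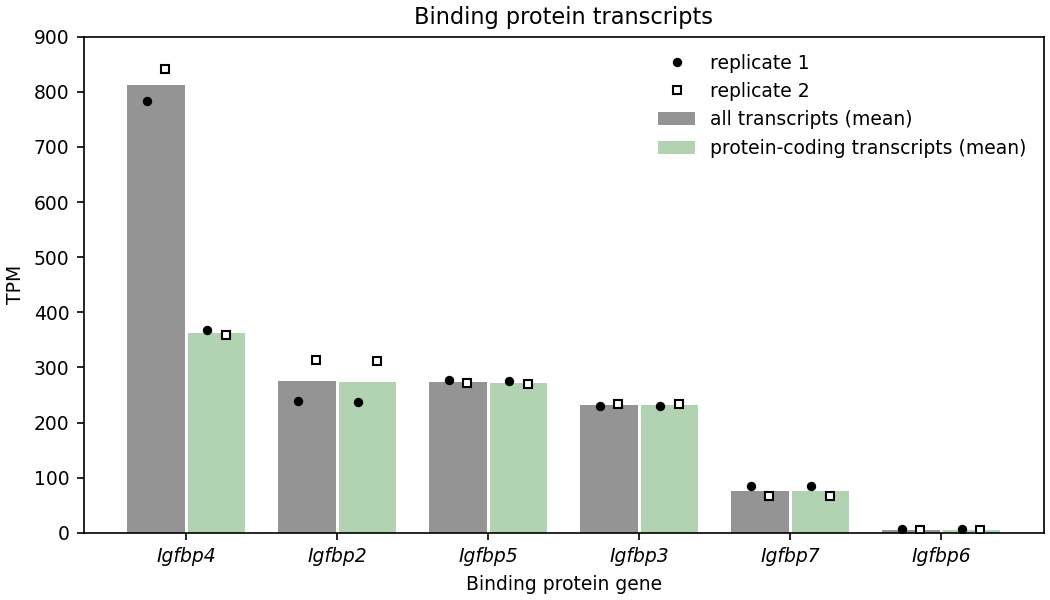
Level in TPM of the 6 binding protein genes from all annotated transcripts (grey bars) and from protein-coding transcripts alone (green bars). Bars are means of both libraries, circles replicate 1 and squares replicate 2. For Igfbp4 the mean is 812 TPM from all transcripts and 363 TPM from coding ones, and for the other 5 genes both bars have nearly the same height.

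Igfbp2 and Igfbp5 are neighbouring genes on opposite strands of chromosome 1. Igfbp2 (ENSMUSG00000039323.14, 72824503 to 72852474, plus strand), an abundant fetal binding protein, had 19731 and 23606 counts and 238 and 314 TPM, 276 ± 53.3 (SD, n = 2). Igfbp5 (ENSMUSG00000026185.8, 72857932 to 72874884, minus strand), which binds extracellular matrix and is made in muscle and skeletal tissue, had 120497 and 109314 counts and 277 and 271 TPM, 274 ± 4.15 (SD, n = 2). Igfbp2 was below Igfbp5 in replicate 1 and above it in replicate 2. The mean difference, -0.0040 on the log2 scale with a 95% interval of -0.51 to 0.50, was within the replicate spread (limma adjusted p = 0.988). Per read the genes stand far apart, since the main Igfbp5 transcript has 6006 nucleotides and that of Igfbp2 1307. Both came almost wholly from 1 coding transcript, Igfbp2-201 with 98.7% and 99.1% and Igfbp5-201 with 99.2% and 99.4% of the TPM.

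Igfbp3 (ENSMUSG00000020427.7, chromosome 11, 7206086 to 7213923, minus strand), the main IGF carrier of adult blood, had 36179 and 32432 counts. Its level was 230.3 TPM in replicate 1 and 232.9 TPM in replicate 2, 232 ± 1.81 (SD, n = 2), nearly the same in both libraries. It did not differ beyond the spread from Igfbp5 (Igfbp5 over Igfbp3 0.24 on the log2 scale, 95% interval -0.15 to 0.63, adjusted p = 0.198, limma) or from Igfbp2 (Igfbp2 over Igfbp3 0.24, 95% interval -0.26 to 0.74, adjusted p = 0.357, limma). Its 2 transcripts carry the same coding sequence of 879 bases and differ at the 3′ end. The longer one, Igfbp3-201, had 82.1% of the TPM in replicate 1 and 71.9% in replicate 2, and Igfbp3-202 had 17.9% and 28.1%. These rest on 709 exonic bases found only in Igfbp3-202 and 1421 found only in Igfbp3-201.

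Igfbp7 and Igfbp6 were the lowest binding proteins. Igfbp7 (ENSMUSG00000036256.9, chromosome 5, 77349240 to 77408041, minus strand), which binds IGFs weakly and is known from blood vessels, had 5853 and 4143 counts and 84.7 and 66.3 TPM, 75.5 ± 13.0 (SD, n = 2). Its share of binding protein TPM was 5.23% in replicate 1 and 3.83% in replicate 2. Igfbp6 (ENSMUSG00000023046.6, chromosome 15, 102144362 to 102149511, plus strand), which prefers IGF2 to IGF1, had 462 and 311 counts and 6.75 and 5.03 TPM, 5.89 ± 1.22 (SD, n = 2). It was the lowest gene of the axis in both libraries, with 0.417% and 0.291% of the binding protein TPM. Igfbp7-201 had 99.3% and 99.0% of the Igfbp7 TPM, and Igfbp6-201 was the only Igfbp6 transcript in the tables.

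The order by mean level was Igf2, Igfbp4, Igfbp2, Igfbp5, Igfbp3, Igf2r, Igfbp7, Igf1, Igf1r and Igfbp6. Of the 45 pairs of genes, 40 differed beyond the spread between the libraries, and those 40 had the same sign in both. Over all tests of 15054 genes against each of the 10, 92.6% passed, so a call says little about a pair beyond its size. Of the 9 pairs of neighbours in this order 5 passed. The steps that passed were Igf2 over Igfbp4 (log2 difference 2.28, SE 0.22, adjusted p = 8.07e-05, limma), Igfbp4 over Igfbp2, Igfbp3 over Igf2r (1.502, SE 0.16, adjusted p = 4.93e-05, limma), Igf1 over Igf1r, and Igf1r over Igfbp6 (1.69, SE 0.20, adjusted p = 8.88e-05, limma).

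The genes that did not separate formed 2 runs. The first was Igfbp2, Igfbp5 and Igfbp3, whose 3 pairs all missed the threshold. In another fit, the spread came from the level of each gene rather than from differences. It was still moderated over all genes, with 5.37 degrees of freedom. The 95% intervals there were -0.59 to 0.58 for Igfbp2 over Igfbp5 and -0.34 to 0.82 for Igfbp2 over Igfbp3. In the other run, Igfbp7 separated from neither Igf2r (Igf2r over Igfbp7 0.11 on the log2 scale, 95% interval -0.52 to 0.74, adjusted p = 0.734, limma) nor Igf1 (Igfbp7 over Igf1 0.34, 95% interval -0.28 to 0.96, adjusted p = 0.294, limma). With the spread taken from the level of each gene, these intervals were -0.40 to 0.63 and -0.17 to 0.85. Igf2r and Igf1 themselves passed (0.45, SE 0.16, adjusted p = 0.0210, limma). That call was lost with the spread taken from the level of each gene (adjusted p = 0.0620, limma), an alternative added after the data were seen. In CPM, counts scaled by library size with no length scaling, 42 pairs passed, with 3 of the 40 calls lost and 5 gained. The signs of 6 pairs turned there: Igfbp4 over Igfbp5, Igfbp2 over Igf2r, Igfbp3 over Igf2r, Igfbp7 over Igf1r, Igfbp2 over Igfbp3 and Igfbp7 over Igf1. Of these, Igfbp2 over Igf2r and Igfbp3 over Igf2r passed in both directions.

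**Figure D3:**
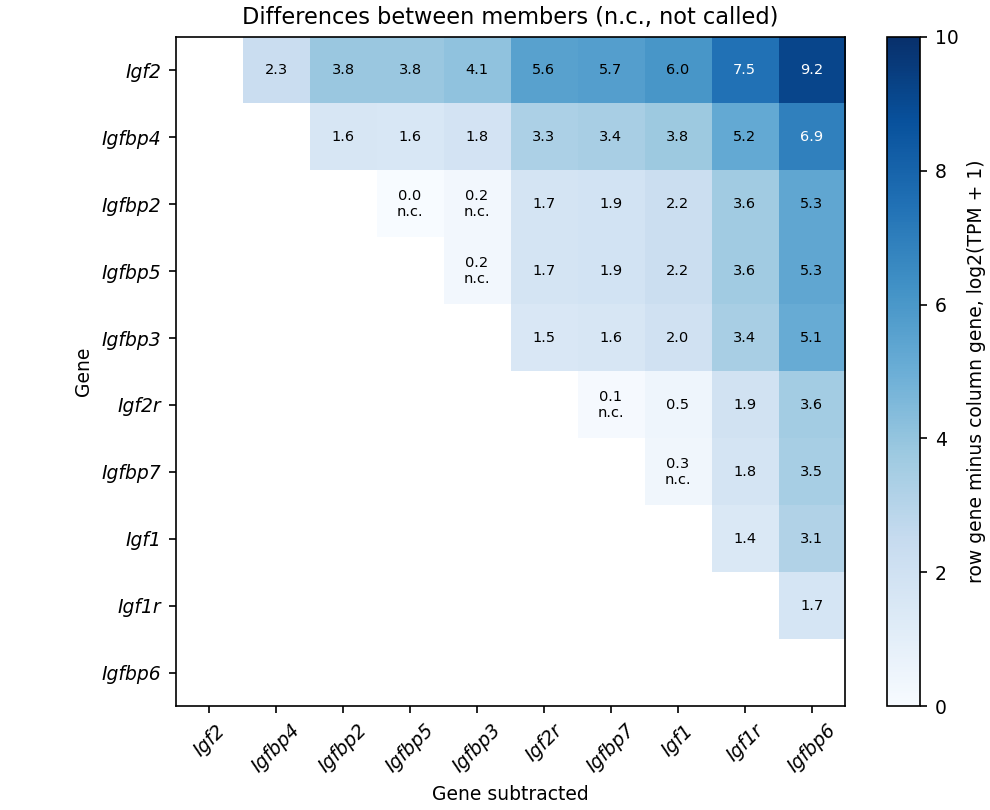
Difference in log2(TPM + 1) of the gene in the row minus the gene in the column, mean of both libraries, genes ordered by mean TPM. The cells marked n.c. are the 5 pairs that limma did not call, and the differences grow towards the upper right corner, where Igf2 exceeds Igfbp6 by 9.17.

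Between the libraries, no gene of the axis differed by 1.5-fold or more in TPM. Of the 15055 genes whose mean reached 1 TPM, 11.6% did. The largest ratios of replicate 2 to replicate 1 were 0.745 for Igfbp6, 1.32 for Igfbp2, 0.783 for Igfbp7 and 1.26 for Igf2. These 4 were the ones past 1.2-fold, against 44.1% of all genes, and the median fold was 1.12 for the 10 genes and 1.17 for all genes. In the same direction as Igf2 and Igfbp2, 7 of the 8 limb markers were higher in replicate 2, with a sum over the list of 412 and 534 TPM in replicates 1 and 2. The same held for all 3 cartilage markers, Col2a1, Matn1 and Acan (sum of 1858 and 2202 TPM), and for both macrophage markers, Cd68 and Csf1r (sum of 28.0 and 35.8 TPM). In the direction of Igfbp6 and Igfbp7, all 3 muscle markers (Myog, Myh3 and Ckm) were lower in replicate 2 (sum of 381 and 279 TPM), as were both epidermal ones, Krt5 and Krt14 (sum of 577 and 432 TPM). The tendon, endothelial and erythroid lists each had 1 of 2 markers higher in replicate 2, with sums of 173 and 196, 84.7 and 82.3, and 10160 and 9968 TPM. The part of these tissues in the ratios of the axis was not tested.

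**Figure D4:**
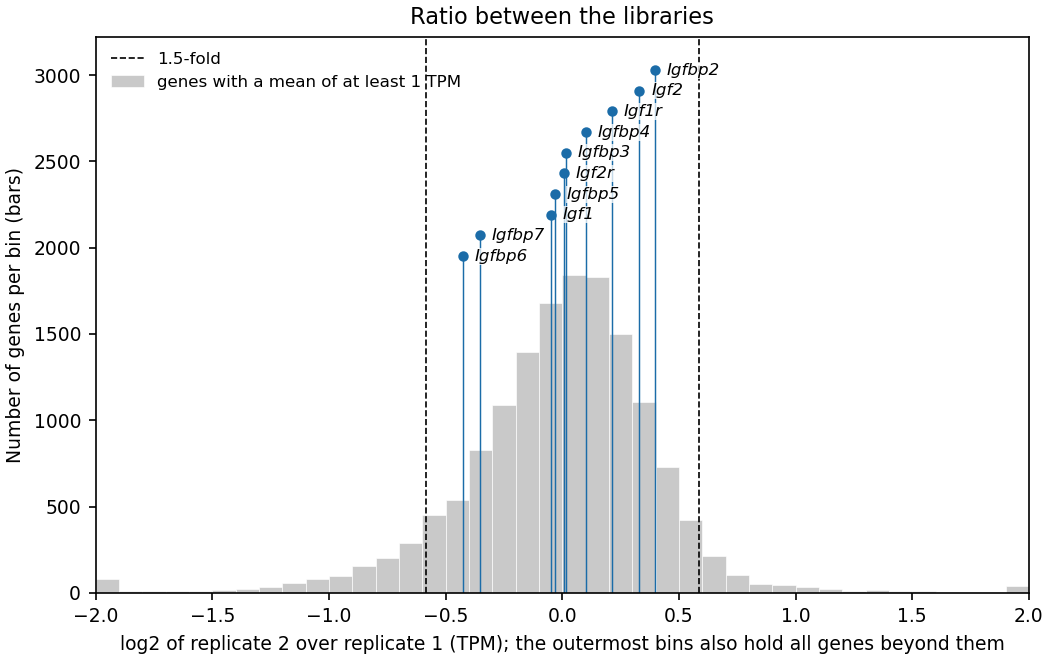
Number of genes (bars) by the log2 ratio of TPM in replicate 2 over replicate 1, for genes whose mean reached 1 TPM, with the 10 genes of the axis as labelled lines whose height only separates the labels. All 10 lie inside the dashed lines at 1.5-fold, from Igfbp6 at -0.42 to Igfbp2 at 0.40.

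In all, the tables list 38 transcripts for the 10 genes, of which 17 held at least 10% of the TPM of their gene in either library. The leading transcript by TPM was the same in both libraries for all 8 genes with more than 1 transcript. Of the 8461 genes whose mean reached 5 TPM and that have 2 or more transcripts, 10.9% had a different leading transcript in each library. A transcript share moved by at least 10 percentage points in 2 of the 8 genes, Igf1 (28.2 points) and Igfbp3 (10.1 points), against 30.4% of the 8461 genes. The other 6 moved by 0.17 (Igfbp5) to 7.96 points (Igf2). The length taken off each transcript to give its effective length was 199 nucleotides in replicate 1 and 226 in replicate 2, so the TPM of the shortest transcripts was scaled differently in each library. For Igf1-208 the effective length was 311 and 284 nucleotides.

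**Figure D5:**
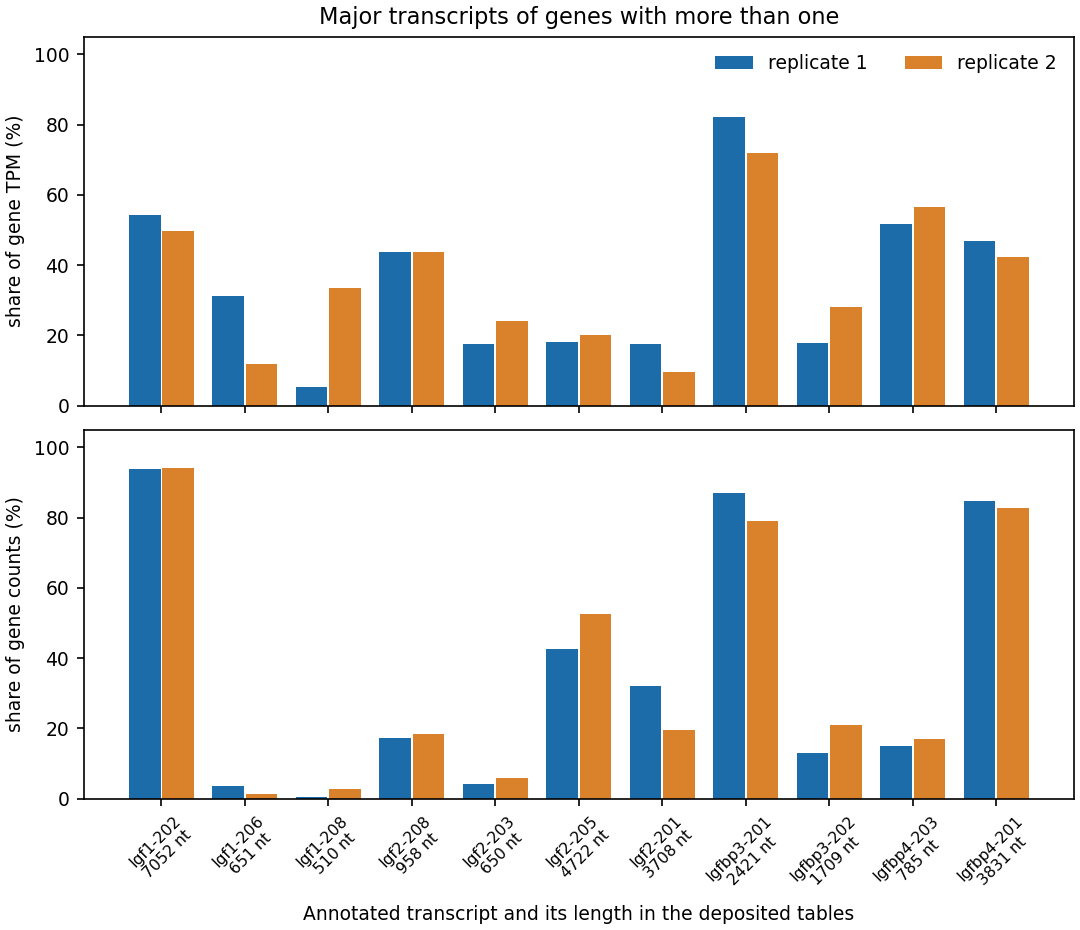
Share in percent of each transcript holding at least 10% of its gene in either library, for Igf1, Igf2, Igfbp3 and Igfbp4, by TPM (upper panel) and by estimated counts (lower panel), replicate 1 in blue and replicate 2 in orange. Short transcripts such as Igf2-208, Igfbp4-203 and Igf1-208 have tall bars in TPM and low ones in counts.

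Of 46 other genes of the pathway, 40 reached 1 TPM in both libraries, against 33.8% of all genes and 62.8% of protein-coding genes. The ligands of the related insulin receptor were not seen: Ins1 and Ins2 had 0 counts in both. A count of 0 is compatible with at most 3 counts, or 0.0272 CPM in replicate 1 and 0.0290 CPM in replicate 2. Insr, the insulin receptor, had 9.23 and 10.1 TPM in replicates 1 and 2, and Insrr, its orphan relative, had 1.13 and 1.40 TPM. Both lay below Igf1r in each library.

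Binding proteins outside the 10 were low. Igfbp1, a binding protein of liver, had 1.14 and 1.68 TPM, and Igfbpl1, a related gene, had 1.33 and 0.71 TPM. Igfals, the subunit that holds IGFs in a large complex in blood, had 0.08 and 0.17 TPM. Transcripts of all 9 listed proteases and protease inhibitors reached 1 TPM in both libraries, as did 62.8% of protein-coding genes. The 9 include convertases that process precursors. Pappa, which cuts IGFBP4, had 1.42 and 1.78 TPM. Pappa2, which cuts IGFBP3 and IGFBP5, had 4.33 and 3.61 TPM. Stc1 and Stc2, the stanniocalcins that inhibit both, had 10.97 and 11.93 TPM and 3.39 and 3.74 TPM. The secreted protease gene Htra1 was higher, at 103.0 and 83.3 TPM. In both libraries Pappa was thus far below Igfbp4, whose product it cuts.

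Inside the cell, 20 of 22 genes of the signalling cascade reached 1 TPM in both libraries, against 62.8% of protein-coding genes. Irs1 and Irs2, the main adaptors of the insulin and IGF1 receptors, had 16.3 and 21.3 TPM and 10.9 and 18.0 TPM in replicates 1 and 2. Irs3 (0.26 and 0.50 TPM) and Irs4 (0.10 and 0.17 TPM) were the members below 1 TPM. Grb10, the imprinted adaptor that restrains signalling from the insulin and IGF1 receptors, was far above these, at 536 and 600.2 TPM. In both libraries, Grb10 transcripts were therefore more abundant in TPM than those of Irs1, Irs2 or Igf1r, while protein levels were not measured.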

How the data were processed

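Per the labels, stranded paired-end libraries of polyadenylated RNA over 200 nucleotides were read at 101 nucleotides. The authors deposited, per library, gene and transcript tables of estimated counts (expected counts), TPM and posterior mean TPM against mm10 and GENCODE M4, per the deposited text file. The deposited transcript tables give isoform shares in percent. The program and its strand setting are not given in the sources used here. Values were used as deposited. Names and exons came from GENCODE M21 (GRCm38) by stable identifier, which matched 37 of the 38 transcripts, and promoter windows from RefSeq (GRCm38.p6). ERCC, phiX and tRNA rows, 3.73% and 4.30% of counts, were left out.

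For pairs, log2(TPM + 1) of each gene with a mean of at least 1 TPM minus that of each of the 10 genes within the same library was fitted with limma 3.58.1 (intercept only, eBayes with trend), with Benjamini-Hochberg adjustment over all 150540 tests. A pair was called when the larger of its 2 adjusted p-values was under 0.05. For each of the 10 references, the deviation of the reference gene is shared by every difference, which affects all p-values of pairs. With Igf2, Igfbp2, Igfbp6 or Igfbp7 as the reference, the prior degrees of freedom were also unlimited. For that reason no p-value is printed for the 6 pairs among these 4 genes. All 6 were called, also with the spread taken from the level of each gene and moderated over all genes. The intervals and p-values of 4 pairs that were not called (Igfbp2 with Igfbp5 and Igfbp3, Igfbp7 with Igf2r and Igf1) rest on the same unlimited prior. Their intervals are therefore also given with the spread taken from the level of each gene. The fit was also run on simulated data with Igfbp3 alone as the reference. That run does not cover the 4 references with an unlimited prior, and no conclusion is drawn from it.

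Alternatives used a pseudocount of 0.1, filters of 10 TPM or none, no trend, posterior mean TPM, adjustment within each reference, and counts scaled by TMM (edgeR 4.0.16) or by DESeq2 1.42.0 size factors. The 10 genes, the pathway and marker lists and the tests were chosen with earlier results of these data known. All 10 genes, every transcript with at least 10% of its gene and a set of pathway genes and locus neighbours were to be named, as were listed genes under 1 TPM. Proteins were not analysed here.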

Additional observations from a re-analysis of the deposited data

How the results depend on the processing

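Summed over the 10 genes, the mean of 5801 TPM was 3602 TPM from protein-coding transcripts, an alternative added after the data were seen, and 5293 to 6309 TPM with either replicate left out. The mean Igfbp4 share of binding protein TPM, 48.5%, was 39.1% in CPM and 29.7% from protein-coding transcripts, and 48.3% to 48.6% with either replicate left out. Pairs called numbered 38 to 42 of 45 over all alternatives, and 0 genes passed 1.5-fold under each scaling. The count of major transcripts, 17 with both libraries, was 16 with either replicate left out. The pathway list had 41 detected genes at 0.5 TPM, a threshold at which the share of all genes was not computed. In CPM, which is not scaled by length, 6 signs turned: Igfbp2 over Igf2r became -1.19, Igfbp3 over Igf2r -0.53, Igfbp7 over Igf1r -0.39, Igfbp4 over Igfbp5 -0.023, Igfbp2 over Igfbp3 -0.66 and Igfbp7 over Igf1 -1.69 on the log2 scale. With both libraries kept, the other settings turned 0 of the 45 signs. With either replicate left out, Igfbp2 over Igfbp5 ranged from -0.22 to 0.21 and Igf2r over Igfbp7 from -0.065 to 0.29, and none of the other 43 pairs changed sign. Libraries could not be paired between conditions because there is only 1 group, while differences between genes were taken within each library. With 2 libraries, shares of short transcripts that have few bases of their own are the least certain values. Intervals cover the moderated spread between the 2 libraries alone, and floors cover counting error only.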

Other observations

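The imprinted surroundings of the axis were also transcribed. H19, the noncoding neighbour of Igf2 on chromosome 7 (142575529 to 142578143, minus strand) that is expressed from the maternal copy, had 8132 and 8910 TPM in replicates 1 and 2. It was above Igf2 in each library, and its effective length of 1959 and 1479 nucleotides differed between them. Ins2, which lies beside Igf2, had 0 counts in both libraries. The tables do not separate the parental copies.

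Of the 46 other genes of the pathway, 7 had a mean above 100 TPM. These were H19, Plagl1, Grb10, Akt1, Lrp1, Shc1 and Pik3r2, of which Plagl1, Akt1, Lrp1, Shc1 and Pik3r2 are named because of their values. The lowest of the 7, Pik3r2 with a mean of 101.8 TPM, was rank 1464 among all 43346 gene rows. Whether the list holds more such genes than other lists was not tested.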
